A study of Rattus norvegicus with 6 samples.

Results

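The genes described here are 49 factors that build ribosomes in the nucleolus, together with *Myc*, the gene of the transcription factor MYC, in CD163+ macrophages of the rat brain after ischemia. These 50 genes were matched by symbol to array probe sets that name exactly 1 gene, out of 14217 genes named in this way on the array. Of the 50, 49 were matched and 48 had enough signal to be tested, among 9928 genes tested in all. The probe sets for *Npm1*, a nucleolar chaperone, each named several genes, so *Npm1* was not analysed here. *Noc3l*, a large-subunit factor, was matched but too dim to be tested.

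The cells were CD11b+CD163+ macrophages sorted by flow cytometry from the right brain hemisphere of adult male Sprague-Dawley rats. CD163 marks macrophages along brain vessels and below the pia in this species, and the sort did not separate these locations. The control group held rats 63, 68 and 69. The ischemia group held rats 64, 65 and 66, whose right middle cerebral artery had been occluded by an intraluminal filament for 1 h and which were studied at 16 h of reperfusion. Each rat gave 1 array. By the study's flow cytometry, the sorted cells of the ischemic brain also held a small share of granulocytes. Values are on the log2 scale, on which a difference of 1 is a doubling of signal, and a gene was called where limma gave a Benjamini-Hochberg adjusted p under 0.01 over all genes tested. In these bulk samples, a change in the share of cells that express a gene cannot be told apart from a change in RNA per cell.

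Ribosome assembly begins in the nucleolus, where RNA polymerase I transcribes a long precursor of the ribosomal RNAs. Small nucleolar ribonucleoproteins (snoRNPs) carry enzymes to the precursor that methylate ribose or turn uridine into pseudouridine, and further sets of factors fold, cut and package it into the small and the large subunit. MYC binds DNA as a dimer with MAX and is known to drive genes of all these steps when cells grow. In macrophages it is known as a gene of growth factor signalling and of alternative activation.

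The set rose almost as a whole after ischemia. By limma with Benjamini-Hochberg adjustment, 41 of the 48 genes tested (85.4%) were higher after ischemia, whereas 16.8% of all genes tested were called higher. None of the 48 was called lower, nor lower at an unadjusted p under 0.05, against 5.99% of all genes called lower. The median log2 fold change of the 48 was 1.16, with quartiles of 0.95 and 1.42, and that of all genes tested was 0.10. All 48 fold changes lay above 0 in the deposited scaling, and those of *Nop10* and *Imp3* were just below 0 when the arrays were centred on cytosolic ribosomal protein genes. In 47 of the 48, every ischemic rat lay above every control rat, an arrangement seen in 35.7% of all genes tested (19.9% had the opposite one). The genes were chosen with earlier results known, so these counts describe the set and do not test it.

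**Figure D1:**
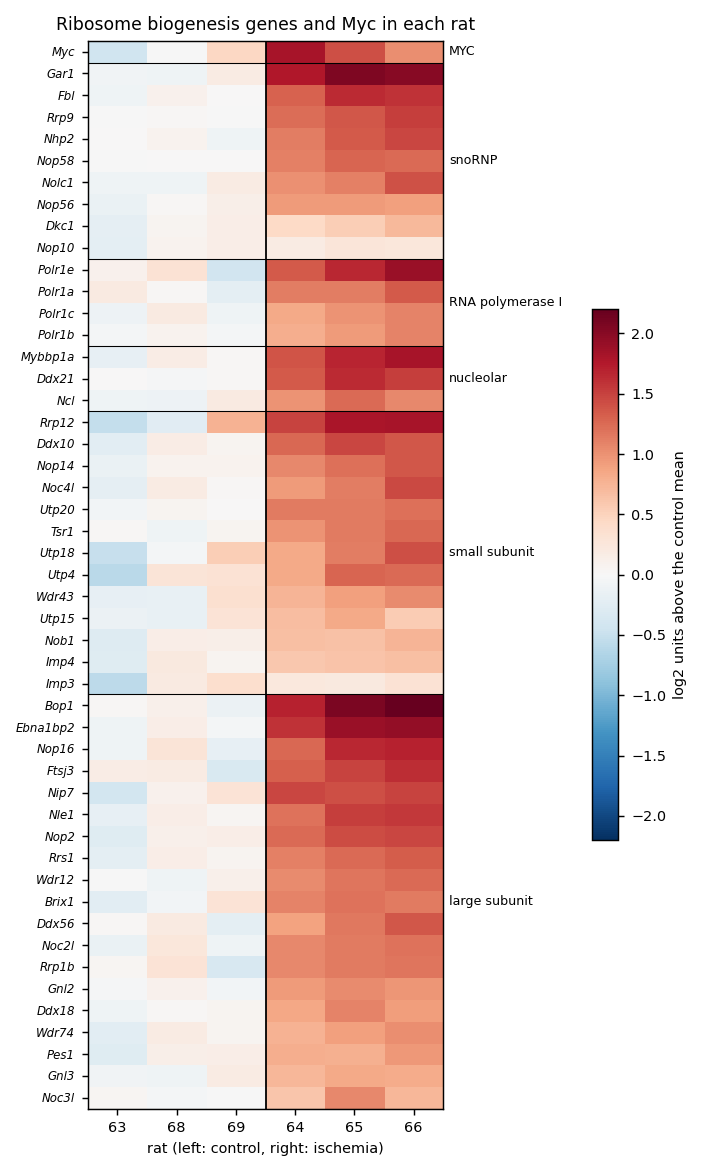
Each cell gives, for 1 gene (row, grouped by role) and 1 rat (column), the log2 signal minus the mean of the 3 control rats, in log2 units from blue (below) to red (above). The 3 ischemia columns are red in nearly all rows, while the control columns stay near 0 except in a few genes of rat 63 and rat 69.

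The rise was of similar size in the 3 ischemic rats. The median deviation of the 49 matched genes from their control means was 1.05 in rat 64, 1.16 in rat 65 and 1.25 in rat 66. In the control rats it was -0.11 in rat 63, 0.09 in rat 68 and 0.06 in rat 69. Rat 64 was the lowest of the ischemic rats in 42 of the 49 genes, and rat 63 was the lowest of the controls in 32. The SD between rats of a group had a median over genes of 0.18 in control and of 0.14 in ischemia, so most differences exceeded the spread several times over.

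*Myc* itself rose. Its log2 signal was 8.34, 8.78 and 9.23 in control rats 63, 68 and 69. It reached 10.60, 10.20 and 9.80 in the ischemic rats 64, 65 and 66. The groups did not overlap, but both were spread widely, and the lowest ischemic rat lay 0.57 above the highest control. The log2 fold change was 1.42 (SE 0.27, 95% interval 0.80 to 2.03, n = 3 per group, limma adjusted p = 0.00458). The call was lost when control rat 63 was left out (adjusted p = 0.016), control rat 68 (0.0193) or ischemic rat 65 (0.0178), while the direction was kept. Among the ischemic rats, the order for *Myc* was not that of most other genes: rat 64, highest for *Myc*, was the lowest for most factors. Among the controls, rat 63 was lowest for *Myc* and in 32 of the 49 matched genes. Rat 69 was highest for *Myc* and in 24 of the 49, and rat 68 was highest in 23.

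The partners and rivals of MYC did not move as a block. Among 15 genes of the MYC network that were tested, none was called higher by limma and 1 (6.67%) was called lower, near the 5.99% of all genes (2 and 3 at an unadjusted p under 0.05), and the median log2 fold change was -0.14. The gene called lower was *Mxd4*, whose product competes with MYC for MAX and represses transcription. *Mxd4* measured 9.58, 10.01 and 9.71 in control rats and 9.04, 8.67 and 8.68 in ischemic rats, with no overlap (log2 fold change -0.97, SE 0.17, adjusted p = 0.00323). That call was lost on leaving out control rat 68 or 69, or ischemic rat 65 or 66. *Max*, named here as the partner of MYC and after its values were seen, had a log2 fold change of 0.29 and did not pass the test (SE 0.13, adjusted p = 0.117), though its groups did not overlap. In 4 of the 15 every ischemic rat lay above every control rat, and in 3 the reverse held, against 35.7% and 19.9% of all genes tested. *Mycn*, a paralogue of *Myc*, was too dim to be tested, with log2 signals of 4.46 to 4.62 over the 6 rats.

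**Figure D2:**
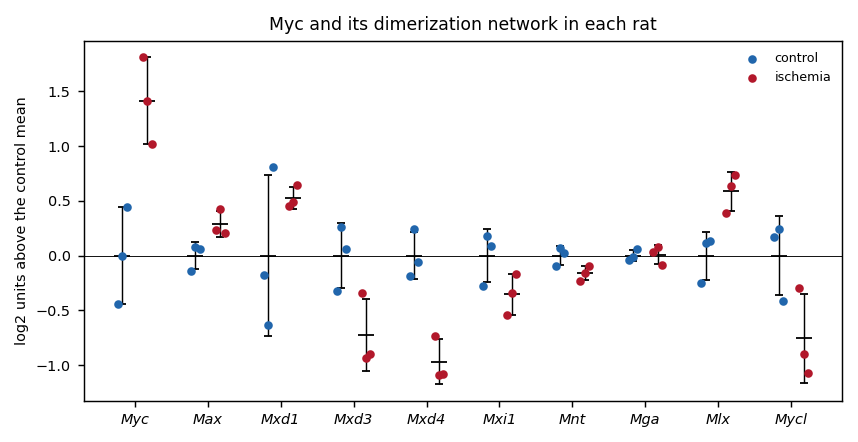
For *Myc* and 9 genes of its dimerization network (x axis), points give the log2 signal of each rat minus the mean of the control rats (y axis, log2 units), with black bars for the mean and SD of 3 rats. *Myc*, *Max* and *Mlx* lie above their controls in all 3 ischemic rats, and *Mxd3* and *Mxd4* below theirs in all 3. Of the genes shown, only *Myc* and *Mxd4* passed the test.

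Of the 9 snoRNP genes, 7 were called higher (77.8%, against 16.8% of all genes). All 9 had log2 fold changes above 0, with a median of 1.22. *Gar1* encodes a core protein of the box H/ACA particles, which pseudouridylate ribosomal RNA. It measured 9.66, 9.65 and 9.91 in control rats and 11.51, 11.79 and 11.74 in ischemic rats. This was the largest change of the class and the one of lowest adjusted p in the set (log2 fold change 1.94, SE 0.14, adjusted p = 0.000165). *Fbl* encodes fibrillarin, the ribose methyltransferase of box C/D particles. Its signal was 9.87, 10.05 and 9.98 in control and 11.27, 11.61 and 11.56 in ischemia (log2 fold change 1.52, SE 0.14, adjusted p = 0.0004). *Rrp9*, whose product belongs to the U3 particle that guides early cuts of the precursor, was 8.85, 8.89 and 8.85 in control and 10.08, 10.22 and 10.38 in ischemia (log2 fold change 1.37, SE 0.13, adjusted p = 0.000403). In each of these 3 genes the control rats lay close together and far below the ischemic rats.

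The box H/ACA core did not move evenly. Its 4 proteins are the pseudouridine synthase dyskerin (*Dkc1*) with Gar1, Nhp2 and Nop10. *Nhp2* rose by 1.31 on the log2 scale (SE 0.14, adjusted p = 0.000562). *Dkc1* was 10.28, 10.53 and 10.63 in control and 10.92, 11.02 and 11.19 in ischemia, higher in all 3 ischemic rats but not past the threshold (log2 fold change 0.56, SE 0.15, adjusted p = 0.0173). *Nop10*, whose probe set was bright in both groups, was 11.98, 12.28 and 12.34 in control and 12.38, 12.47 and 12.45 in ischemia. The *Nop10* groups met closely without overlapping, and the difference did not pass the test (log2 fold change 0.23, 95% interval -0.09 to 0.55, adjusted p = 0.214). The 95% intervals of *Gar1* (1.61 to 2.27) and *Nop10* did not meet, but the difference between the genes was not tested. The remaining members, *Nop58* and *Nop56* of the box C/D core and *Nolc1*, which encodes a snoRNP chaperone, rose by log2 fold changes of 1.22, 0.93 and 1.18.

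All 4 RNA polymerase I genes were called higher (against 16.8% of all genes), with a median log2 fold change of 1.08. *Polr1a* and *Polr1b* encode the largest subunits of the enzyme, which form its active centre, *Polr1c* a subunit shared with RNA polymerase III, and *Polr1e* a subunit that acts in initiation and elongation. *Polr1e* changed most, from 8.06, 8.29 and 7.55 to 9.31, 9.63 and 9.87 (log2 fold change 1.63, SE 0.22, adjusted p = 0.00131). *Polr1a* went from 8.28, 8.12 and 7.87 to 9.21, 9.21 and 9.44 (log2 fold change 1.20, SE 0.15, adjusted p = 0.00104). The control rats spread most in *Polr1e*, with rat 69 the lowest, and neither gene's groups overlapped. *Polr1c* rose by 0.97 on this scale (SE 0.14, adjusted p = 0.00177), and *Polr1b* by 0.95 (SE 0.13, adjusted p = 0.00143). Of these 4 calls, those of *Polr1a*, *Polr1b* and *Polr1c* were lost when the arrays were centred on cytosolic ribosomal protein genes (adjusted p = 0.0153, 0.0173 and 0.0125), and that of *Polr1c* also without ischemic rat 65 (0.0104).

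The 3 measured genes of proteins that organise the nucleolus or act throughout it were called higher, against 16.8% of all genes. *Mybbp1a*, which encodes a nucleolar regulator of ribosomal RNA synthesis, was 10.001, 10.353 and 10.208 in control and 11.57, 11.86 and 12 in ischemia (log2 fold change 1.62, SE 0.16, adjusted p = 0.000467). *Ddx21*, an RNA helicase gene, was 10.60, 10.56 and 10.60 in control and 11.94, 12.24 and 12.10 in ischemia (log2 fold change 1.51, SE 0.13, adjusted p = 0.000286). *Ncl*, which encodes the abundant nucleolar protein nucleolin, was 11.64, 11.62 and 11.93 in control and 12.72, 12.98 and 12.79 in ischemia (log2 fold change 1.10, SE 0.14, adjusted p = 0.00116). None of the 3 showed overlap between groups.

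Among the factors of the small subunit, 8 of 13 were called higher (61.5%, against 16.8% of all genes). All 13 had log2 fold changes above 0, with a median of 1.13. Of the 7 genes in the set that did not pass the test, 5 were in this class. *Rrp12*, whose product takes part in late maturation and export of the subunit, changed most but unevenly, from 8.52, 8.80 and 9.81 in control to 10.53, 10.85 and 10.86 in ischemia. Control rat 69 stood about 1 log2 unit above the other controls, and the log2 fold change was 1.70 (SE 0.31, adjusted p = 0.00385). Leaving out control rat 63 or 68, or ischemic rat 65 or 66, ended the *Rrp12* call (adjusted p of 0.0137 to 0.0186). *Ddx10*, a helicase gene of the early precursor, was 8.85, 9.24 and 9.13 in control and 10.34, 10.54 and 10.44 in ischemia (log2 fold change 1.37, SE 0.15, adjusted p = 0.000594). *Nop14*, a gene of early assembly, was 8.45, 8.67 and 8.69 in control and 9.66, 9.81 and 9.98 in ischemia (log2 fold change 1.21, SE 0.14, adjusted p = 0.000763). *Tsr1*, which encodes a factor of late particles, was 10.79, 10.68 and 10.82 in control and 11.76, 11.91 and 12.04 in ischemia (log2 fold change 1.14, SE 0.13, adjusted p = 0.00072). In the last 3 genes the control rats agreed to within 0.4 log2 units, and no rat of the groups overlapped.

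The lowest values of the class belonged to *Imp3* and *Imp4*, whose products bind the U3 particle. *Imp3* was 9.51, 10.30 and 10.47 in control rats 63, 68 and 69 and 10.32, 10.30 and 10.41 in ischemic rats, the only gene of the set whose groups overlapped (log2 fold change 0.25, 95% interval -0.29 to 0.80, adjusted p = 0.422). Its positive value rested on control rat 63, since without that rat the log2 fold change was -0.04 (adjusted p = 0.819). *Imp4* was 10.33, 10.79 and 10.64 in control and 11.18, 11.22 and 11.25 in ischemia, with no overlap (log2 fold change 0.63, SE 0.15, adjusted p = 0.0116). The other 3 genes short of the threshold were *Utp15*, *Utp4* and *Utp18*, all of the large early complex known as the small-subunit processome, with adjusted p of 0.0117, 0.0109 and 0.0119. *Utp4* and *Utp18* had log2 fold changes of 1.11 and 1.13, near the median of the set, with SEs of 0.26 and 0.27, larger than those of most other genes. *Utp18* was spread from 7.77 to 8.82 among controls and from 9.11 to 9.69 among ischemic rats. *Nob1*, which encodes the nuclease of the last cut in the small-subunit RNA, passed narrowly (log2 fold change 0.69, SE 0.15, adjusted p = 0.00881) and was lost on leaving out any 1 of the 6 rats.

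All 18 large-subunit factors tested were called higher (against 16.8% of all genes), with a median log2 fold change of 1.15. Centred on cytosolic ribosomal protein genes, 11 of the 18 and 7 of the 13 small-subunit genes were called, against 6.51% of all genes. The difference between these classes was not tested. *Bop1*, *Pes1* and *Wdr12* encode the PeBoW complex, which is needed to process the RNA of the large subunit. *Bop1* was 8.87, 8.96 and 8.71 in control and 10.53, 10.92 and 11.17 in ischemia, and with a log2 fold change of 2.03 it was the only gene of the set beyond 2 (SE 0.18, adjusted p = 0.000339). Its partner *Pes1* was 9.45, 9.85 and 9.85 in control and 10.51, 10.50 and 10.67 in ischemia (log2 fold change 0.85, SE 0.15, adjusted p = 0.00381). *Wdr12* lay between them at 1.15 log2 units (SE 0.13, adjusted p = 0.00065). The complex thus rose in all 3 of its genes by unequal amounts, and the difference between *Bop1* and *Pes1* was not tested.

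*Ebna1bp2*, a gene of early large-subunit assembly, was 10.43, 10.66 and 10.48 in control and 12.11, 12.42 and 12.45 in ischemia (log2 fold change 1.80, SE 0.15, adjusted p = 0.000253). *Nop16* was 10.05, 10.44 and 9.97 in control and 11.41, 11.82 and 11.84 in ischemia (log2 fold change 1.54, SE 0.18, adjusted p = 0.00083). *Gnl3*, which encodes the GTP-binding protein nucleostemin, had the smallest change of the class, from 11.47, 11.45 and 11.73 to 12.29, 12.39 and 12.37 (log2 fold change 0.80, SE 0.13, adjusted p = 0.00268). The *Gnl3* call was lost without control rat 68 (adjusted p = 0.0107), ischemic rat 65 (0.0164) or ischemic rat 66 (0.0123), and that of *Pes1* without ischemic rat 65 (0.0162) or 66 (0.0169). In each of *Ebna1bp2*, *Nop16* and *Gnl3*, all ischemic rats lay above all control rats. The other 12 genes of the class had log2 fold changes between those of *Wdr74* (0.90) and *Ftsj3* (1.48). *Noc3l*, which was not tested, was 6.57, 6.49 and 6.51 in control and 7.13, 7.57 and 7.25 in ischemia, so its groups did not overlap either.

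**Figure D3:**
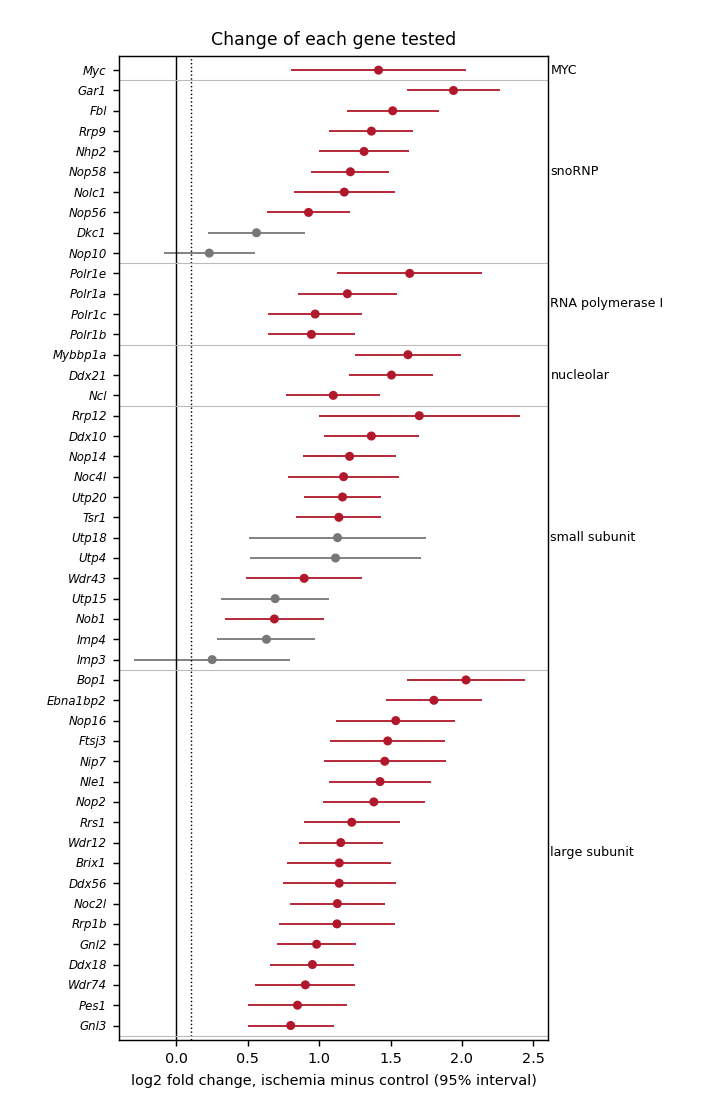
Points give the log2 fold change of each of the 48 genes tested (x axis, ischemia minus control) with its 95% interval from limma, grouped by role. Red marks the 41 genes called higher, grey the 7 not called, and the dotted line the median of all genes (0.10). All 18 large-subunit genes and 8 of the 13 small-subunit genes are red, against 16.8% of all genes called higher. With the arrays centred on cytosolic ribosomal protein genes these became 11 and 7, against 6.51% of all genes.

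Most genes of the set (38 of 49) were measured by 1 probe set. The other 11 had 15 further probe sets. Of these 15, 13 had all ischemic rats above all control rats (as did 35.7% of all genes tested), with differences of 0.71 to 1.83. The other 2 overlapped between groups. A dim probe set of *Gnl2* differed by -0.05 between groups and 1 of *Nolc1* by -0.02, whereas the probe sets used for these genes differed by 0.98 and 1.18. The further probe sets of *Wdr43* (1.82), *Utp15* (1.33) and *Imp4* (1.27) gave larger differences than the ones used (0.90, 0.69 and 0.63). Probe sets of 1 gene thus disagreed in size for several genes, and *Utp15* and *Imp4*, which were not called, were represented by the probe set with the smaller difference.

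The same steps of assembly are also served by 105 genes that were not in the set, of which 95 were tested. Of these, 59 (62.1%, against 16.8% of all genes) were called higher by limma and none lower (75 and 2 at an unadjusted p under 0.05). The median log2 fold change was 0.70. The 59 fell to 39 without control rat 63 or 69, to 27 without ischemic rat 65 and to 30 without ischemic rat 66. Without rats 63, 69, 65 and 66 in turn, 10.1%, 9.92%, 6.86% and 8.24% of all genes were called higher. For the small subunit, 26 of 38 were called higher (68.4%, against 16.8% of all genes) and the median was 0.76. *Bysl* (log2 fold change 1.85, adjusted p = 0.000447), *Pno1* (1.77, 0.000363) and *Mphosph10* (1.56, 0.000403) rose most. *Utp3* had the lowest value at 0.14 and did not pass the test (adjusted p = 0.484).

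For the large subunit, 23 of 38 further genes were called higher (60.5%, against 16.8% of all genes) and the median was 0.69. *Pak1ip1*, whose product acts in large-subunit assembly, rose more than any gene of the set, from 9.88, 9.58 and 9.85 to 11.68, 12.22 and 12.83 (log2 fold change 2.47, SE 0.27, adjusted p = 0.000611). *Mrto4* (1.78, adjusted p = 0.000222) and *Rpf2* (1.44, adjusted p = 0.000471) followed. *Nop53* was lower in all 3 ischemic rats without passing the test, at 12.51, 12.77 and 12.93 in control and 12.41, 11.99 and 11.95 in ischemia (log2 fold change -0.62, adjusted p = 0.0237).

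Of 11 further genes of RNA polymerase I and its factors, 4 were called higher (36.4%, against 16.8% of all genes) and the median was 0.36. *Polr1f*, a subunit gene, had the highest value (log2 fold change 1.37, adjusted p = 0.0015), before *Taf1d* of the promoter-binding complex (0.83, adjusted p = 0.00274) and *Polr1g* (0.81, adjusted p = 0.0033). *Ttf1*, which encodes the termination factor, had the lowest at -0.31 and did not pass the test (adjusted p = 0.0985). Of 8 genes that assemble snoRNPs, 6 were called higher (75%) and the median was 0.80. *Shq1*, whose product is the chaperone of dyskerin, had a log2 fold change of 1.82 (adjusted p = 0.000452), and the helicase-like genes *Ruvbl1* and *Ruvbl2* had 1.30 and 1.23 (adjusted p = 0.00143 and 0.000841). *Znhit3* had the lowest value at 0.17 (adjusted p = 0.354).

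The proteins of the ribosome itself gave fewer calls. Of 45 cytosolic ribosomal protein genes tested, 3 were called higher (6.67%, against 16.8% of all genes) and none lower (16 and 0 at an unadjusted p under 0.05). The 3 were *Rpl34*, *Rpl39* and *Rpl7l1*, with log2 fold changes of 0.88, 1.27 and 0.73. All 45 fold changes lay above 0, with a median of 0.40. In 27 of the 45 every ischemic rat lay above every control rat, against 35.7% of all genes tested. Of the 45, 20 lay within 1 log2 unit of the highest value of every array, and none of the 48 genes of the set did. The part of this closeness to the top of the scale in their values was not tested. *Rpl7l1* is a relative of a ribosomal protein gene rather than a standard subunit. These genes were low in control rat 63, where their median deviation from the control mean was -0.38, against 0.21 and 0.22 in rats 68 and 69 and 0.38 to 0.43 in ischemic rats. Of 73 mitochondrial ribosomal protein genes, 35 were called higher, none lower (60 and 0 at an unadjusted p under 0.05), and the median was 0.66. This count fell to 13, 21 and 13 without control rats 63, 68 and 69, and to 9 and 11 without ischemic rats 65 and 66. These lists gave 3 of 45 and 35 of 73 calls, beside 41 of 48 in the set, and the differences between lists were not tested. In these lists the count depended on the scaling. Centred on the cytosolic ribosomal protein genes, 29 of the 48 genes of the set were called higher, with a median of 0.89. Of these 29, 28 were among the 41. So were called 26 of the 95 further assembly genes and 10 of the 73 mitochondrial ones, against 6.51% of all genes. The same centring moved the median of all genes by -0.27, and of all calls 41.2% were then higher, against 73.7% as deposited and 60.1% when the quantile normalization was repeated.

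**Figure D4:**
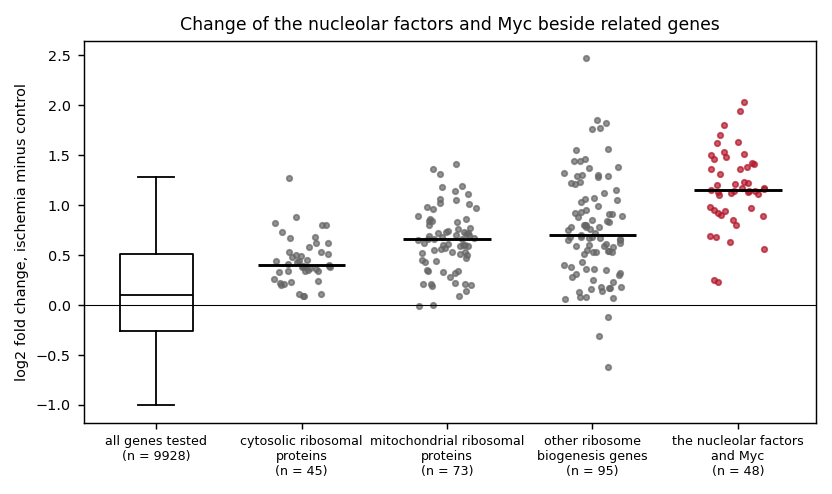
The y axis gives the log2 fold change, ischemia minus control. The box shows all 9928 genes tested (median, quartiles, whiskers from the 5th to the 95th percentile), and points show genes of 4 lists with a bar at the median. The medians are 0.10 for all genes, 0.40 and 0.66 for cytosolic and mitochondrial ribosomal proteins, 0.70 for other assembly genes and 1.16 for the nucleolar factors with *Myc*.

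The promoters of the set were read for the letters that MYC and MAX are known to bind. The window was 250 bases before to 50 after a start annotated for the gene, from RefSeq on the rat assembly GRCr8. For some genes this start lies inside the annotated span of the gene. It was found for 45 of the 50 genes, and not for *Myc*, *Wdr43*, *Bop1*, *Rrs1* and *Gnl2*. The palindrome CACGTG, the canonical E-box, which reads the same on both strands, occurred in 15 of the 45 windows (33.3%), beside 10.2% of the windows of all genes tested and 7.08% of all windows in the table. Among 88 further assembly genes it occurred in 25 (28.4%), and among 43 cytosolic ribosomal protein genes in 3 (6.98%). A variant searched on both strands, CACGCG, was in 16 of the 45 (35.6%), against 18.5% of all genes tested and 9.54% of all windows. The E-box was in 11 of the 36 windows of genes called higher (30.6%) and in 3 of the 7 of genes not called.

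In 7 genes a site lay with its flanks wholly before the start used for the window. These sites are printed to show the flanks of the palindrome in genes called higher and in genes not called. Each stretch is 30 bases, 5′ to 3′ on the strand of the gene, with the palindrome in capitals. Of the 7 stretches, 4 (*Gnl3*, *Utp18*, *Utp20* and *Utp4*) lie within the annotated span of their gene, so they are not upstream of the whole gene.
Dkc1: agcgtcccggcgCACGTGcgggccccaccc
Gnl3: agttccagttcgCACGTGgcgcccgagacg
Mybbp1a: gcagtttctacaCACGTGtgcgagcacagg
Pes1: ccctaagcggggCACGTGcggtaggaagta
Utp18: gtgagtgtcggtCACGTGgttcgaggcagc
Utp20: cagcactagctaCACGTGagaaaaagcaga
Utp4: tgcgcacgcgcgCACGTGggaccggggcgg

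On GRCr8 these stretches are chrX:157751455-157751484 (plus strand) for *Dkc1*, chr16:6219790-6219819 (minus) for *Gnl3*, chr10:57555290-57555319 (plus) for *Mybbp1a*, chr14:83074284-83074313 (plus) for *Pes1*, chr10:79335830-79335859 (minus) for *Utp18*, chr7:25102959-25102988 (minus) for *Utp20* and chr19:51702204-51702233 (plus) for *Utp4*. The genes with these sites ranged from *Mybbp1a*, with a log2 fold change of 1.62, to *Dkc1*, which was not called at 0.56. A match says only that the letters are there, and binding of MYC was not measured.

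Few proliferation genes passed the test. Of 23 cell cycle genes tested, 3 were called higher by limma (13%, near the 16.8% of all genes) and none lower (7 and 1 at an unadjusted p under 0.05), and the median log2 fold change was 0.30. The 3 were *Mcm6*, *Ccne1* and *Mcm2*, which act at the start of DNA replication, with log2 fold changes of 0.96, 0.86 and 0.61. In 8 of the 23 every ischemic rat lay above every control rat, and in 2 the reverse held, against 35.7% and 19.9% of all genes tested. *Mki67*, the usual marker of cycling cells, was named after its values were seen. It was 1 of the 2 that were lower in all 3 ischemic rats, without passing the test (log2 fold change -0.48, adjusted p = 0.0675).

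Markers of other cells also moved with the groups. Of 14 granulocyte markers on the array, 4 were called higher (*S100a8*, *Lcn2*, *Mmp9* and *Itgal*). The first 3 of these were under the low-signal level in every control rat and so were tested only because of their ischemic signal, and 6 of the 14 were too dim to be tested, so the count is no measure of the list. The log2 of the summed signal of all 14 was 11.77 to 11.99 in control and 12.67 to 13.05 in ischemia. *Itgal* was the brightest of the 14 in every rat and so added most to this sum. It measured 10.94 to 11.23 in control and 11.81 to 12.02 in ischemia. *S100a8*, a granulocyte calcium-binding protein gene, went from 4.80 to 5.89 in control rats to 8.24 to 9.44 in ischemic rats. The defining markers *Mpo* and *Elane* were not analysed here. Of the 8 markers tested, 7 had log2 fold changes above 0, and only the granulocyte receptor gene *Cxcr2* was below (-0.50, adjusted p = 0.179). The receptor gene *Csf3r*, named after its values were seen, was higher in all 3 ischemic rats without passing the test (0.93, adjusted p = 0.0113). Of 13 monocyte markers 8 were called higher (61.5%, against 16.8% of all genes), *Itgal* being on both lists. The 3 highest log2 fold changes, named after their values were seen, were those of *Vcan* (6.74), *Fn1* (5.96) and *Ly6c* (4.68). *Vcan* was under the low-signal level in every control rat. *Ccr2*, also named after its values were seen, had 0.43 (adjusted p = 0.311), and the lowest value was -0.77. Bright genes add most to the summed signals, which were 15.41 to 16.01 in control and 16.44 to 16.71 in ischemia. Of 16 border macrophage markers 3 were called lower (against 5.99% of all genes) and none higher. At an unadjusted p under 0.05, 10 were lower and 0 higher. Their median log2 fold change was -0.76, with only 2 of the 16 above 0. The 3 called lower were *Igfbp4* (-2.68), *Colec12* (-1.95) and *Hpgd* (-1.74). Their summed signals as a list were 16.87 to 17.86 in control and 16.74 to 17.42 in ischemia. *Cd163*, the gene of the sort, was high in all rats, at 12.63, 13.86 and 13.41 in control and 14.11, 14.02 and 13.38 in ischemia, with overlap. Unlike most of its list, *Cd163* had a log2 fold change above 0, without passing the test (0.54, adjusted p = 0.211). Oligodendrocyte markers also fell, with 3 of 9 called lower (against 5.99% of all genes). Their summed signals were 13.28 to 14.45 in control and 12.03 to 12.75 in ischemia. The arrays differed in RNA measures too: the actin control probe sets differed between the 3′ and 5′ ends by 0.06 to 0.07 log2 units in control and by 0.17 to 0.24 in ischemia. Control rat 63 had a highest value of 13.85, against 14.88 to 14.96 on the other arrays, and without it 37 of the 48 genes of the set were called. The same rat stood apart in endothelial markers, with a median deviation of 1.45 from the control mean, against -1.06 in rat 68, -0.61 in rat 69 and -0.76 to -0.04 in ischemic rats. Among controls it also had the highest median deviation of oligodendrocyte markers (0.84) and the lowest of border macrophage markers (-0.66), and it was the rat lowest for 32 of the 49 genes of the set. The part of these markers and measures in the rise of the set was not tested.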

How the data were processed

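RNA of sorted CD11b+CD163+ cells of 6 rats, 3 per group, was measured on Affymetrix Rat Genome arrays (31099 probe sets). The deposited log2 values were made by the authors with RMA (background correction, quantile normalization and summary over probes). The normalization brings arrays to 1 distribution before the summary, so changes are relative to the other genes. After the summary the arrays were not fully equal, with medians of 7.82 to 7.895. The highest value was 13.85 in control rat 63 and 14.88 to 14.96 on the other arrays. The submitters' notes name R 3.3.1 and limma 3.18. Each rat was a replicate and groups came from the sample titles.

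Probe sets naming 1 gene (20826, against 436 with several and 9780 with none) were collapsed to the one of highest mean per gene. A gene entered the test if its signal was above 7.16 (the 40th percentile of values other than control probe sets) on 3 or more arrays. The groups were compared in limma 3.58.1 (R 4.3.3), by a linear model with empirical Bayes moderation and two-sided tests, and p-values were adjusted by Benjamini-Hochberg over the 9928 genes kept. A gene was called at an adjusted p under 0.01, and the study's further limit of a log2 fold change beyond 2 was an alternative. An exact permutation test of 3 against 3 cannot give a p under 0.1 and was not used. The members and lists were chosen with earlier results of these data known. Named genes were *Myc*, genes not tested, the 3 highest, 2 lowest and brightest of each role, called genes of the MYC network, and the 3 highest and the lowest of each further assembly list; others are said to be chosen after their values were seen or were named as members of a complex, for a count of 5 or fewer, or for a promoter site. Border macrophage, microglia, lymphocyte, endothelial and oligodendrocyte markers were checked beside granulocyte and monocyte markers: microglia gave 2 of 10 called higher and 1 lower, lymphocytes 1 and 2 of 6, and endothelial cells none of 6 (1 higher and 1 lower at an unadjusted p under 0.05).

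Tested on data simulated from these arrays, the fit found 34.3% of the genes given a change of 1 log2 unit, 85.1% of those given 2 and 97% of those given 4, with 1 false call among 9728 unchanged genes. In that simulation far fewer genes changed than were called in the data, and noise was drawn independently for each gene. Its shares therefore need not hold for the real arrays. Arrays have no read depth, and precision is set by how many rats there are. The alternatives changed the filter, probe set choice, scaling, moderation, weights, thresholds and leaving out each rat.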

Additional observations from a re-analysis of the deposited data

How the results depend on the processing

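Under every alternative run, no gene of the set was called lower, and the median of the set stayed between 0.89 and 1.25. The calls higher were 29 to 46 of the genes tested, except under 2 settings: 0 without variance moderation (46 at an unadjusted p under 0.05), where 0 of all 9928 genes were called, and 1 (*Bop1*, 2.08%) with the added limit of a log2 fold change beyond 2, near the 1.63% of all genes. Leaving out each rat in turn gave 31 (without ischemic rat 65) to 42 calls, while 6.86% to 15.8% of all genes were called higher, and 31 of the 41 genes stayed called in all 6 of these fits. The 10 others were *Myc*, *Polr1c*, *Wdr43*, *Rrp12*, *Nob1*, *Pes1*, *Wdr74*, *Ddx56*, *Rrp1b* and *Gnl3*. For *Myc*, moderation left out gave an adjusted p of 0.0543 at a log2 fold change of 1.42, a value also short of the limit of 2, and leaving out a rat gave 1.196 to 1.64. With the arrays centred on cytosolic ribosomal proteins, the median of the set was 0.89, 13 of the 41 calls were lost (*Nop56*, *Polr1a*, *Polr1b*, *Polr1c*, *Wdr43*, *Nob1*, *Pes1*, *Wdr74*, *Ddx18*, *Ddx56*, *Rrp1b*, *Gnl2* and *Gnl3*) and that of *Utp4* was gained. In that scaling 26 further assembly genes were called higher and 1 lower, 10 mitochondrial and 0 cytosolic ribosomal protein genes were called higher, and 2 MYC network genes lower. All genes then gave 643 calls higher (6.51%) and 918 lower, against 1664 and 595. Without moderation, 0 genes of any of these lists were called, and with the limit of 2, 1 further assembly gene and 0 of the others. At an adjusted p under 0.05, 54 mitochondrial and 13 cytosolic ribosomal protein genes (28.9% of the latter, near the 27.4% of all genes) were higher, 2 MYC network genes higher and 3 lower, and 1 further assembly gene lower. Array weights gave 8 cytosolic ribosomal protein genes higher, 2 MYC network genes higher and 2 lower, and 1 further assembly gene lower, as did repeated quantile normalization for the last. Another filter (60th percentile), the mean of all probe sets, or the probe set of largest variance gave 5 cytosolic ribosomal protein genes. Leaving out a rat gave 27 to 48 further assembly genes higher and 0 to 1 lower, 0 to 3 MYC network genes lower, 0 to 5 cytosolic and 9 to 31 mitochondrial ribosomal protein genes higher. The cause of these shifts was not tested. No paired analysis was possible because the rats of the groups are different animals and share no numbers.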
